A study of Caenorhabditis elegans with 2 samples.

Results

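The genes described here build the contractile and attachment structures of the body wall muscle of Caenorhabditis elegans. They are 34 named genes out of 19973 protein-coding genes, listed by their known roles in muscle, with earlier results of these data known: 12 encode parts of the muscle attachment sites, 11 thin filament proteins, 9 thick filament proteins and 2 muscle transcription factors. The measurement is where the transcription factor ETS-4 was found along the genome, by chromatin immunoprecipitation followed by sequencing (ChIP-seq). The samples were whole hermaphrodite late embryos of strain OP509, genotype unc-119(tm4063) III; wgIs509, taken 5 hours after synchronization by bleaching. Their transgene carries ETS-4 with a GFP and FLAG tag at its C-terminus, and the chromatin was precipitated with an antibody against GFP. There were 2 biological replicates of this 1 group, and no untagged or otherwise treated embryos were compared with it. Because whole embryos were used, binding in muscle and binding in any other cell type cannot be told apart.

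The body wall muscle moves the worm. Its sarcomeres are anchored through the cell membrane to the basement membrane: dense bodies, which hold the thin filaments, and M-lines, which hold the thick filaments, both sit on integrin attachment complexes. ETS factors recognise DNA with a GGAA core, and HLH-1 and UNC-120, the worm counterparts of MyoD and serum response factor, act in body wall muscle specification. Muscle differentiates and begins to contract during embryogenesis.

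The authors deposited 4 lists of regions that bear on these genes in the ce11 build. The replicate 1 list held 15619 regions, the replicate 2 list 14622 and the list called on both replicates pooled 12348, all with weak regions kept as input for a reproducibility step. That step (IDR, irreproducible discovery rate, which keeps regions whose rank repeats between replicates) left 1106 regions. Each region has a summit and a signal value set by the authors' peak caller, and regions were ranked by it within each list. Signals ran from 24.2 to 1137.1 in the pooled list, with a median of 31.2, and the lowest IDR signal was 71.1. A gene was counted as carrying a region when a summit lay from 1000 bp upstream to 200 bp downstream of any of its transcript starts. The value given for a gene in each list is its highest there, so the lists can differ in which summit it comes from. No read counts were given, so depth is unknown and no counting interval can be set on a signal.

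An IDR region lay at 3 of the 34 muscle genes (8.82%), beside 5.34% of all protein-coding genes, a share close to that background. The 3 were mlc-3, unc-112 and unc-60, and each came from a different structure of the muscle. mlc-3 encodes the essential myosin light chain of the thick filament, unc-112 encodes kindlin of the integrin attachment, and unc-60 encodes ADF/cofilin, which severs actin filaments. Weaker regions were much more widespread. In the pooled list, 25 of the 34 genes (73.5%) carried a region, beside 26.5% of all protein-coding genes. Most of the muscle genes with a region therefore stood below the IDR regions in signal. No test of a list against the rest of the genome was made, and the shares are descriptions.

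The DNA at the strongest regions is shown because these 5 genes hold the highest pooled signals of the set. Each stretch is 121 bases long in WBcel235 (ce11), read 5′ to 3′ on the strand of the gene. For unc-112 (V:14696963-14697083, minus strand), unc-60 (V:1474663-1474783, plus strand), dim-1 (X:8053147-8053267, minus strand) and act-4 (X:4960484-4960604, plus strand) it is centred on the summit. For mlc-3 (III:5564904-5565024, plus strand) it is the DNA just upstream of the transcript start, since the summit lies 10 bp inside the transcript. Capitals mark matches, on either strand, to 6 motifs: GAGAGA, the ETS core GGAA, the longer ETS consensus CCGGAA, an E-box CAGCTG, another E-box CACCTG, and the CArG box. In these 5 stretches the matches were to GAGAGA and to the GGAA core.
mlc-3: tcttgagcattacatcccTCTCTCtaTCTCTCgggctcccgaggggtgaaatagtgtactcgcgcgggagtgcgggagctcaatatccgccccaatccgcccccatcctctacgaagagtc
unc-112: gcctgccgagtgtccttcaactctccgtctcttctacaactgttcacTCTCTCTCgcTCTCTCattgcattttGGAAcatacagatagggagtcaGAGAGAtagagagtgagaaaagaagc
unc-60: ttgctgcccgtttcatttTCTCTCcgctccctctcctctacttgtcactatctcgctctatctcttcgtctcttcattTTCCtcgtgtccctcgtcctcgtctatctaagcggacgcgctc
dim-1: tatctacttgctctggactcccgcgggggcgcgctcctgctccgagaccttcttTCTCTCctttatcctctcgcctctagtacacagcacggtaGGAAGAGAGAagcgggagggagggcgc
act-4: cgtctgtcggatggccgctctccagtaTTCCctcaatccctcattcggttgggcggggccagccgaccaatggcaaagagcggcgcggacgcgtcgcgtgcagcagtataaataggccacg

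GAGAGA, or TCTCTC on the other strand, was found in the stretches of mlc-3, unc-112, unc-60 and dim-1 and not in that of act-4. The GGAA core was found in all of them but the mlc-3 stretch, which ends before the mlc-3 summit. Within 100 bp of that summit GGAA was found. CCGGAA was in none of the 5. The stretches of dim-1 (60.3% GC) and act-4 (62.8% GC) were richer in G and C than those of unc-112 (47.1%) and unc-60 (52.1%), and the mlc-3 stretch lay between them at 57.9%.

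Among the thick filament genes, mlc-3 had the highest signal of all 34. Its pooled signal was 128.1 (−log10 q 3.29, rank 358 of 12348), with the summit in the untranslated first exon at chromosome III, position 5565035. The replicate 1 list gave 64.0 at 27 bp downstream of the start, and the replicate 2 list gave 68.4 at 67 bp upstream. Both replicates thus placed it in the top few percent of their lists, at percentiles 97.9 and 97.5. The IDR list held the same summit and signal as the pooled list. The megabase that holds mlc-3, from 5 to 6 Mb of chromosome III, contained 60 IDR regions, where the median over 103 such bins was 10. Whether that density bears on the mlc-3 region was not tested.

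The other 8 thick filament genes carried pooled regions and no IDR region. unc-89, which encodes the giant M-line protein obscurin, reached 50.7 in the pooled list, 29.6 in replicate 1 and 23.1 in replicate 2. The pooled summit lay in an intron, 292 bp upstream of an internal start, where replicate 1 had its 29.6 and replicate 2 had 21.5. The 23.1 of replicate 2 came from the outermost start. A second pooled region of 47.9 lay 255 bp upstream of the outermost start. unc-54, the major myosin heavy chain, had 44.3 pooled, 19.8 in replicate 1 and 22.7 in replicate 2, 164 bp upstream. These values are moderate and were found in both replicate lists, which keep weak regions. Their −log10 q was 0.89 pooled, 0.3 in replicate 1 and 0.64 in replicate 2. mlc-1 and mlc-2, the near-identical regulatory light chains, lie head to head on the X chromosome. mlc-1 had 41.1 pooled, with 19.2 and 22 in the replicates. mlc-2 had 37.3 pooled, 37.1 in replicate 1 and no region in replicate 2. The neighbours therefore differed in whether a replicate list held them.

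unc-15 encodes paramyosin, the core of the thick filament, and had 36.8 pooled and 17.2 in each replicate list. Those highest summits lay 244 and 920 bp upstream, and replicate 2 held a weaker region of 13.7 within 100 bp of the pooled summit. unc-22 encodes twitchin, a giant kinase of the thick filament, and had 33.7 pooled, 17.4 in replicate 1 and 22.8 in replicate 2. The pooled and replicate 2 summits lay at the same internal start, and the replicate 1 value came from another start. A stronger pooled region of 42.0 lay just past its window, 294 bp downstream of a start. myo-3, the minor myosin heavy chain at the filament centre, had a pooled region of 29.9 at 951 bp upstream and no region in either replicate list. unc-45, a chaperone that folds myosin, had the lowest signal of the group and of all members with a region. It was 26.1 in the pooled list (−log10 q 0.05), with none in replicate 1 and 17.9 in replicate 2. An IDR summit of 132.2 lay 137 bp past the 3′ end of unc-45, in the promoter window of no gene.

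The thin filament group followed the same pattern, with 1 IDR region and pooled regions at 10 of 11 genes (90.9%). unc-60 had a pooled signal of 93.4 (−log10 q 3.29, rank 686), 363 bp upstream of its start at chromosome V, position 1474723. The replicate 1 list gave 38.3 and the replicate 2 list 56.4, at percentiles 93.7 and 96.3. Replicate 2 was 1.47 times replicate 1 there, against a median ratio of 1.1 (quartiles 0.88 and 1.38) over the 1068 IDR regions with a summit in both lists. The unc-60 summit also lay in the window of a neighbouring gene, F53E2.2, so the region cannot be given to unc-60 alone.

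All 4 muscle actin genes carried pooled regions, and none carried an IDR region. act-4, on the X chromosome, was the highest at 59.7, 77 bp upstream of the outermost start, and a second region of 55.5 lay 327 bp upstream of an inner start. Replicate 1 gave 27.8 and replicate 2 gave 47.0, and the replicate 2 maximum lay at the inner start, with 31.6 at the outer one. act-1 had 50.9 pooled, 31.1 in replicate 1 and 25.6 in replicate 2, and within 100 bp of the pooled summit replicate 1 had 16.9. act-2 had 43.8 pooled, no region in replicate 1 and 26.5 in replicate 2. act-3 had 42.5 pooled, 31.5 in replicate 1 and 17.8 in replicate 2. The replicate values at act-3 came from different starts, since replicate 1 peaked 107 bp before the outermost start and replicate 2 before the internal one.

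act-1, act-2 and act-3 form a cluster on chromosome V. Their coding sequences are nearly the same: act-1 and act-3 are identical over 1128 bases, act-1 and act-2 share 96.2% and act-1 and act-4 share 94.1%. The summits lay outside this shared coding sequence. Within 100 bp of each summit of the 25 members, 0 of 166 windows of 36 bases recurred elsewhere in the genome. The strongest regions of the cluster were not in the promoter windows of act-1, act-2 or act-3. Downstream of act-1, pooled regions of 70.3, 71.4 and 57.5 lay 1591, 2725 and 2951 bp from the act-1 start. The middle of these was an IDR region and lay in no promoter window.

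**Figure D1:**
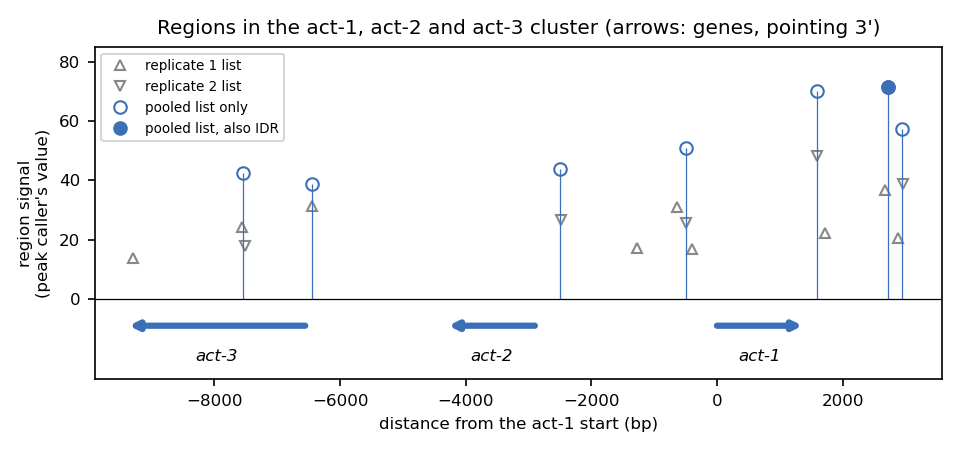
Regions in the act-1, act-2 and act-3 cluster. The x axis is the distance in bp from the act-1 start, the y axis the region signal of the peak caller, circles with stems are pooled regions (filled where also IDR), triangles are replicate regions and arrows are the genes. The pooled regions of 70.3 and 71.4 past the 3′ end of act-1 are higher than the 50.9 at its promoter.

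The remaining thin filament genes bind or regulate actin. lev-11, tropomyosin, with 11 annotated starts, had 49.6 pooled, 42.9 in replicate 1 and 27.2 in replicate 2. The replicate 2 value came from a summit 129 bp downstream of a start, and replicate 2 had none within 100 bp of the pooled summit. An IDR summit of 77.0 lay in an intron of lev-11, 2698 bp from the nearest start and so outside the windows. The troponins had lower pooled signals than lev-11. tnt-2 (troponin T) had 38.7 pooled, 27.7 in replicate 1 and none in replicate 2. pat-10 (troponin C) had 35.9 pooled, with 19.6 and 20.4 in the replicates, the latter more than 100 bp from the pooled summit, which was shared with the window of C46H11.6. unc-27 (troponin I) was the lowest of the group, at 27.3 pooled (−log10 q 0.07), 13.6 in replicate 1 and none in replicate 2. unc-87, a calponin-like protein that bundles actin, had 28.3 pooled, 13.4 in replicate 1 and none in replicate 2. unc-78, which encodes the cofilin partner AIP1, had no region in any of the 4 lists.

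In the pooled list the attachment genes were the most divided group, with a region at 6 of 12 (50%). That order depended on the list. The replicate 1 list held 5 of 12 attachment genes (41.7%) and 9 of 11 thin filament genes (81.8%), beside 29.5% of all genes. The replicate 2 list held 8 of 12 (66.7%) and 7 of 11 (63.6%), beside 28.5%. unc-112 had a pooled signal of 106.9 (−log10 q 3.29, rank 533), 369 bp upstream of its start at chromosome V, position 14697023. The replicate 1 list gave 60.4 and the replicate 2 list 55.6, at percentiles 97.6 and 96.2. No other gene's window held this summit. dim-1, an immunoglobulin-domain protein identified as a modifier of unc-112 in the worm, was the nearest member below the IDR list. It had 64.1 pooled (−log10 q 1.99, rank 1320), 47.0 in replicate 1 and 27.1 in replicate 2, in an intron 527 bp upstream of an internal start. The replicate 2 summit, 368 bp upstream, was more than 100 bp from the pooled one. The replicate lists were farther apart in rank here, with percentiles of 95.7 and 85.2.

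pat-4, the integrin-linked kinase that binds the UNC-112 protein, had 57.9 pooled, 31.2 in replicate 1 and 26.8 in replicate 2. Its region was the only member region with a CCGGAA match. unc-52, the basement membrane proteoglycan perlecan, had 38.2 pooled, 16.6 in replicate 1 and 24.6 in replicate 2. unc-97, the LIM-domain protein PINCH, had 36.3 pooled, none in replicate 1 and 30.1 in replicate 2, 947 bp upstream. deb-1, vinculin of the dense body, was the lowest of the group at 27.9 pooled (−log10 q 0.08), 17.2 in replicate 1 and 21.2 in replicate 2. The replicate values came from different starts, and neither replicate had a summit within 100 bp of the pooled one.

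The remaining attachment genes had no pooled region. pat-6 (parvin) and atn-1 (alpha-actinin) appeared in the replicate 2 list only, at 14.2 and 22.6. Both integrin genes, pat-2 (alpha chain) and pat-3 (beta chain), were in none of the 4 lists. The same held for unc-98, a zinc-finger protein of the M-line, and for unc-95, a LIM-domain protein of the attachment sites. unc-95 did have a pooled region of 38.4 in an intron, 2248 bp from its start. Within the integrin complex, then, the kindlin and integrin-linked kinase genes had regions among the highest of the set, while the receptor genes had none. Of these only the kindlin gene had an IDR region. The PINCH gene unc-97 was lower, at 36.3 pooled, and the parvin gene pat-6 had no pooled region, so the partners of the receptor were themselves divided. The 2 muscle transcription factor genes, hlh-1 and unc-120, were also in none of the lists, and their nearest IDR summits lay 84162 and 33340 bp away. A gene absent from a list had no region above the lowest signal kept in it, which does not show that the factor is absent there.

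**Figure D2:**
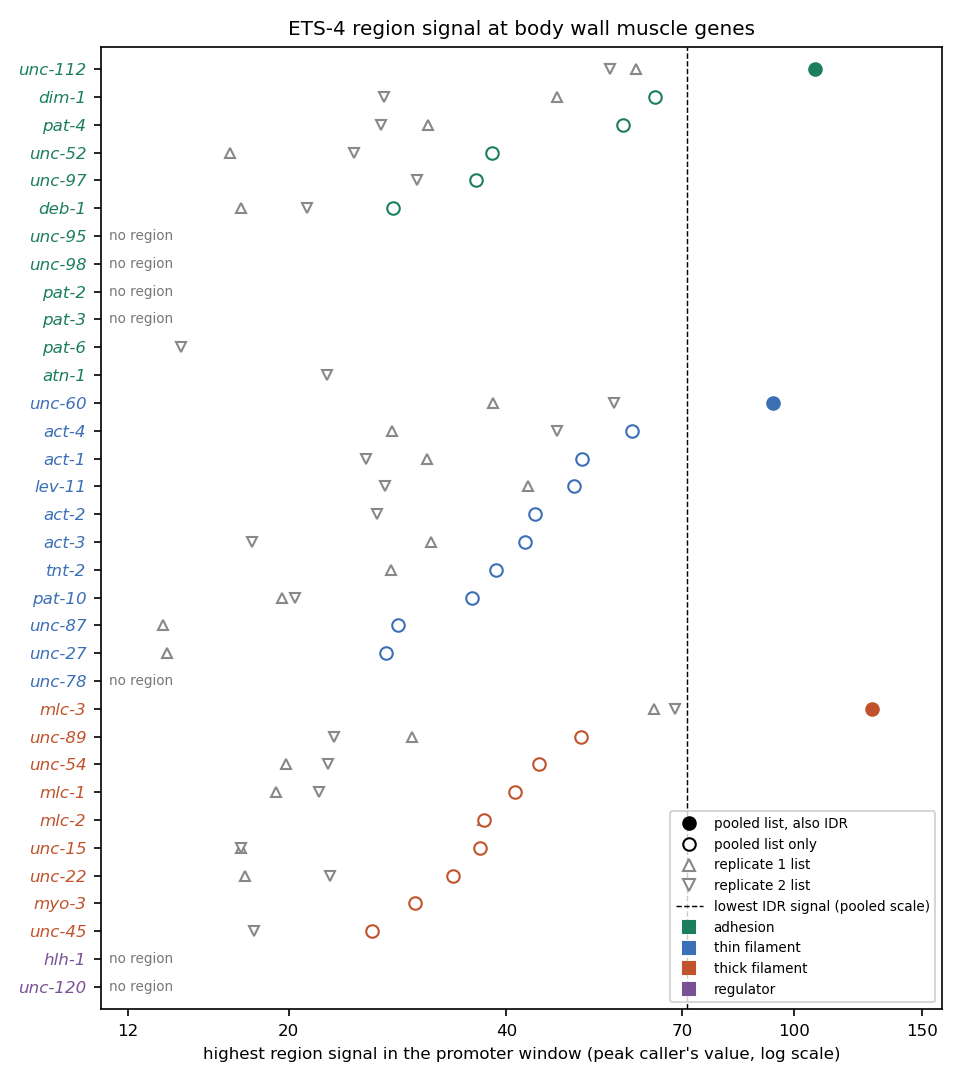
Highest region signal in the promoter window of each of the 34 genes, by group. The x axis is the peak caller's signal on a log scale, circles are the pooled list (filled where the region is also IDR), triangles are the replicate lists and the dashed line is the lowest IDR signal of 71.1. Only mlc-3, unc-112 and unc-60 pass the line, dim-1 at 64.1 is next, and 7 genes have no region in any list.

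Across the replicates, the replicate 1 list held a region at 21 of the 34 genes (61.8%), beside 29.5% of all protein-coding genes. The replicate 2 list held one at 22 (64.7%), beside 28.5%. Both lists held one at 17 genes (50%), beside 18.1% of all genes. By group this was 5 of 12 attachment genes, 6 of 11 thin filament genes, 6 of 9 thick filament genes and neither transcription factor gene. Of the 17, 7 were higher in replicate 1, 9 were higher in replicate 2 and unc-15 was equal. A further 4 genes were in the replicate 1 list alone (tnt-2, unc-27, unc-87 and mlc-2), and 5 in the replicate 2 list alone (unc-97, pat-6, atn-1, act-2 and unc-45). No direction between the replicates was thus common to the set.

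Agreement in place was looser than agreement in presence. Of the 25 highest pooled summits, 11 (44%) had a summit within 100 bp in both replicate lists, 12 in 1 of them and 2 in neither. Over all protein-coding genes with a pooled region, 49.8% had one in both. All 3 IDR members were matched in both replicates, and 8 of the 22 weaker ones were (36.4%). Over all genes with a pooled region and no IDR region, the share was 37.5%. The ratio of replicate 2 to replicate 1 at the 11 matched members had a median of 1.14 and ran from 0.73 to 1.52. Over the 4237 pooled regions matched in both lists the median was 1.02, with quartiles of 0.82 and 1.29.

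**Figure D3:**
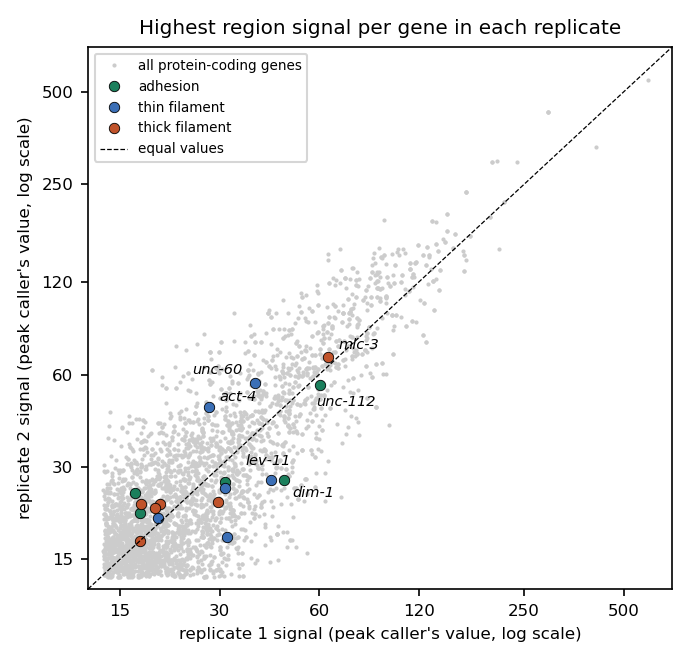
Highest region signal per gene in replicate 1 (x axis) and replicate 2 (y axis), peak caller's values on log scales. Coloured points are the 17 muscle genes with a region in both lists, grey points all protein-coding genes with one, and the dashed line marks equal values; a gene's values can come from different summits. mlc-3 and unc-112 lie near the line, unc-60 and act-4 above it, and lev-11 and dim-1 below it.

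Which genes reached the top depended on the replicate. Among the 1106 strongest regions of replicate 1 alone stood mlc-3 (rank 324), unc-112 (373), dim-1 (678), lev-11 (817), unc-60 (986) and mlc-2 (1059). Among those of replicate 2 alone stood mlc-3 (rank 367), unc-60 (542), unc-112 (551) and act-4 (745). The genes present in both tops were the 3 with an IDR region, which was itself called from both replicates.

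The pooled list shows where the set begins to part from the other genes. Among the 250 strongest pooled regions none was at a member, and 1.51% of all genes had one. Among the top 1000, 3 members (8.82%) and 4.93% of all genes did. Among the top 3000, with signals of 41.9 and above, 12 members (35.3%) and 11.1% of all genes did, and 6 of the 12 were thin filament genes. In the upper 50% of the list, 20 members (58.8%) carried a region, beside 17.3% of all genes. Of those 20, 5 were attachment genes, 8 thin filament genes and 7 thick filament genes. Most of the 25 members with a region thus entered between ranks 1000 and 6000, with 3 in by rank 1000 and 20 by rank 6000. Many other genes entered there too. Of the 5284 genes with a pooled region, 985 were in by rank 1000 and 3405 by rank 6000.

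**Figure D4:**
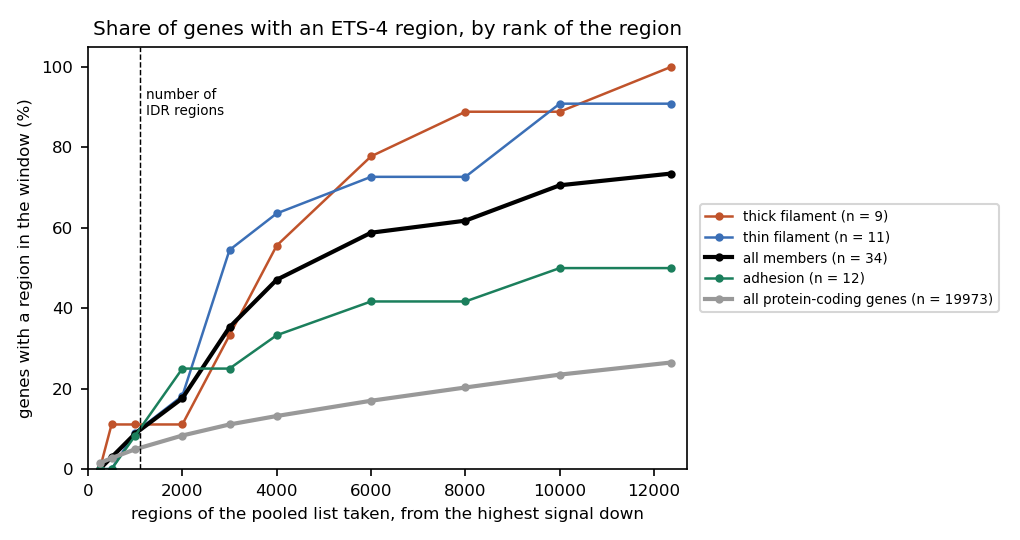
Share of genes with a region in the promoter window as more of the pooled list is taken, from the highest signal down. The x axis is the number of regions taken, the y axis the percent of genes, lines are the member groups and all protein-coding genes, and the dashed line marks the number of IDR regions. The members are at 8.82% after 1000 regions and at 73.5% after all 12348, against 4.93% and 26.5% of all genes.

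Among genes with a pooled region, the members' median signal was 41.1 (range 26.1 to 128.1, quartiles 35.9 and 50.9), beside 36.8 over all 5284 such genes. Their median percentile in the pooled list was 74.6, beside 67.4. The medians of the groups were 48.1 for attachment, 43.2 for thin filament and 37.3 for thick filament genes, whereas the shares with a region were 50%, 90.9% and 100%. The 22 regions below the IDR list had −log10 q from 0.05 to 1.99, and 16 of them were under 1. Such regions were kept by the authors as input for IDR and were not called reproducible.

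Members had several transcript starts more often than all genes, and each start adds to the window. Of the members, 61.8% have 1 start, against 73.7% of all genes. Among genes with 1 start, 14 of 21 members (66.7%) carried a pooled region, beside 21.6% of all such genes. Chromosome X, which carries 9 of the members, was also examined on its own. There 0 of the 9 had an IDR region, beside 3.59% of all X genes, and 7 of the 9 (77.8%) had a pooled region, beside 24.7%.

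The window, 1000 bp upstream to 200 bp downstream of a start, fixed how far the summits could lie and favoured upstream positions. Of the 25, 24 were upstream, with a median of 298 bp for all 25, and 18 lay within 400 bp upstream. Over all genes with a pooled region, 89.4% were upstream and the median was 250 bp. unc-97 and myo-3 were the only members beyond 900 bp. The summit was intergenic at 17 members, in an intron at 6, in an untranslated exon at 2 and in coding sequence at none. At 23 of the 25 the summit lay in the window of no other gene, the exceptions being unc-60 and pat-10. The counts within 400 bp, by place and by shared window have no share over all genes beside them, so they only describe the members.

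**Figure D5:**
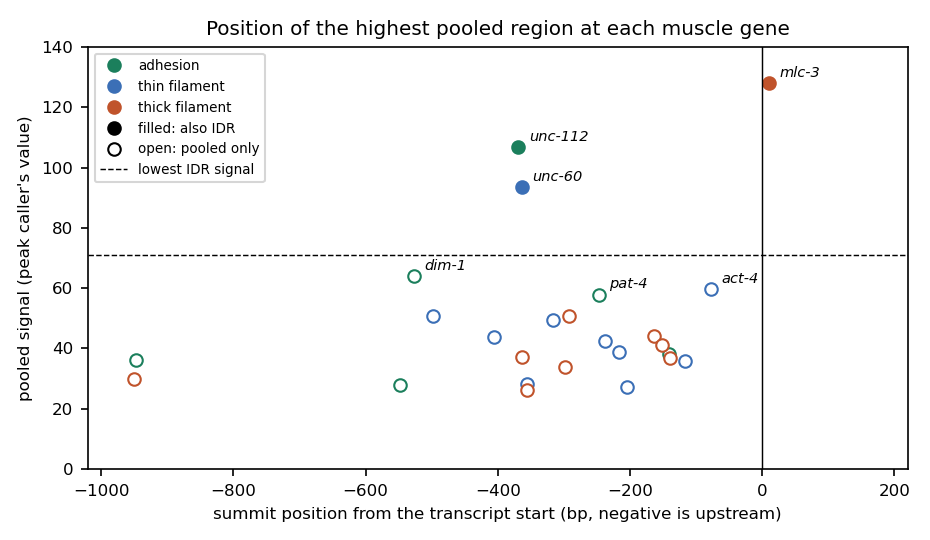
Position and signal of the highest pooled region at each of the 25 genes that have one. The x axis is the distance of the summit from the transcript start in bp (negative is upstream), the y axis the pooled signal, colours are the groups, filled points are also IDR and the dashed line is the lowest IDR signal. Only mlc-3 lies downstream of its start, and most points lie within 400 bp upstream.

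Base composition and motifs were read within 100 bp of each summit. The member regions had a median GC content of 49.8% (range 26.9 to 61.2%), beside 39.3% over all genes with a pooled region. act-4 was the highest, and unc-45 and deb-1 shared the lowest value. The 3 IDR members had a median of 55.2% and the 22 others 47.8%, where all genes had 42.3% with an IDR region and 38.3% without.

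GAGAGA, searched on both strands, was found at 10 of the 25 members (40%), beside 25.8% of all genes with a pooled region and 23.2% of all pooled regions. It was found at unc-112 and unc-60 among the IDR members and at 8 of the 22 others (36.4%), beside 30.3% of all genes with an IDR region and 24.7% of those with a pooled region only. Over all IDR regions the share was 39.4%. At mlc-3 it lay farther than 100 bp from the summit, in the upstream stretch printed above. GGAA was found at 22 members (88%), beside 84.8% of all genes with a pooled region, a similar share. CCGGAA, which contains GGAA, was found at 1 member (4%), beside 6.42%. Of the sequences bound by muscle regulators, the E-boxes CAGCTG and CACCTG were found at 0 of the 25, beside 5.03% and 4.58% of all genes with a pooled region. The CArG box of serum response factor was found at act-2 alone (4%), beside 0.7%. A match is a run of letters and not a binding site.

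A wider search around each gene model added 6 genes. An IDR summit lay within 5 kb of the gene model at 9 members (26.5%), beside 15.2% of all protein-coding genes. Besides mlc-3, unc-112 and unc-60 these were act-1, lev-11 and unc-45, described above, and unc-98, pat-2 and unc-87. The summit near unc-98 (signal 95.5) lay 488 bp past its 3′ end, in the promoter window of apy-1. The summit near pat-2 (83.0) lay 4138 bp past its end, in the window of F44E2.3, and the summit near unc-87 (148.9) lay 889 bp past its end, in the windows of F08B6.1 and calu-2. At these last 3 genes the region thus sat at a neighbour's promoter. From any start of a member to the nearest IDR summit the median distance was 39952 bp, beside 34522 bp over all genes, and it was over 20 kb for 22 members.

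Other genes, listed by role in muscle or as relatives of muscle genes, give the setting. The list was not limited to body wall muscle or to muscle, and it includes the actin act-5 and the light chain mlc-4. Of 70 such genes, 5 had an IDR region (7.14%, beside 5.34% of all protein-coding genes) and 32 a pooled region (45.7%, beside 26.5%). The IDR share is near the background. The 5 were unc-23, cpn-3, cap-1, cap-2 and scpl-1. unc-23, a BAG-family chaperone regulator needed for muscle attachment, had 115.5 pooled, 60.1 in replicate 1 and 55.0 in replicate 2, 29 bp upstream. cpn-3, a calponin-family gene, had 110.3 pooled, 35.9 in replicate 1 and 70.3 in replicate 2. cap-1 and cap-2 encode the alpha and beta subunits of the protein that caps the ends of actin filaments. cap-1 had 107.6 pooled, 50.8 in replicate 1 and 56.8 in replicate 2. cap-2 had 81.6 pooled, 46.8 in replicate 1 and 35.5 in replicate 2. Their summits lay 225 and 224 bp upstream and in the windows of neighbours as well, D2024.4 for cap-1 and gmps-1 for cap-2. scpl-1, a phosphatase-family gene whose product lies at the muscle M-line, had 80.8 pooled, 35.9 in replicate 1 and 45 in replicate 2.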

How the data were processed

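Peak lists of 2 biological replicates of tagged ETS-4 were used. Per the readme texts that came with the data, regions were called for each replicate against a control, then on both replicates together, and IDR was run over these lists. Which aligner, peak caller and IDR threshold were used is not given in the sources used. The signal of each region and its −log10 q are the authors' deposited values, from the narrowPeak layout. Signals are comparable within a list. Neither counts nor tests were recomputed from reads.

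Starts and gene models came from Ensembl release 115 on WBcel235, the ce11 build (29314 starts of 19973 genes, counted by gene ID), and a gene took its region of highest signal. The ce10 lists were not used here. Motifs were searched within 100 bp of summits. Values in all lists are given for members with an IDR region, and for the highest and lowest pooled signal of each group; further members were added after their values were seen. Members and lists were chosen with earlier results of these data known. Of 71 other listed genes, tmd-1 was not found by name, leaving 70. With 1 group there was no test between conditions, and most shares stand beside those over all genes. Replicates are biological per the labels, and without counts no precision can be given. Alternatives were other windows, starts, list depths, matches of the replicates and motif widths, and each replicate alone. Scripts (Python 3.11.15, numpy 2.4.6, matplotlib 3.10.9) were tested on simulated data.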

Additional observations from a re-analysis of the deposited data

How the results depend on the processing

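No paired analysis was possible because the design holds 1 group and no comparison between groups. Of 66 alternative values for the counts and medians, 52 stayed within the set margin (a factor of 1.5 for counts) and 14 moved. The members with an IDR region numbered 3, and 4 to 6 when the top regions of 1 replicate replaced the IDR list. They were 4 without replicate 1 and 6 without replicate 2, which adds dim-1, lev-11 and mlc-2 (all genes 5.17% and 5.07%). By group the counts from 1 replicate were 1 to 2 for attachment and for thick filament genes, and 2 without either replicate for thin filament genes. The count of 3 fell to 2 with the upper 50% of the IDR list and with the top 5% of the pooled list (all genes 2.97% and 3.23%). It was also 2 with summits in the window of that gene only (2.22%) and without genes from 5 to 6 Mb of chromosome III (5.13%). The thin filament count, 1, was 0 with the upper 50% of the IDR list, with the top 5% of the pooled list, and when unc-60 was left out for its shared window. The thick filament count was 0 of 8 without genes from 5 to 6 Mb of chromosome III, an alternative added after seeing the data. The count in both replicate lists, 17, was 11 with the outermost start only and 10 with replicate summits within 100 bp of each other. The share of all genes, 18.1%, was 15.7% and 13.1% in those settings. The median percentile, 74.6, was 80.3 without replicate 1 and 87.4 without replicate 2 (all genes 68.2 and 66.0). Weaker member regions with GAGAGA numbered 8, and 14 in a wider search within 250 bp of the summit, with no share over all genes at that width. The pooled count of 25 ran from 21 to 28 over all alternatives, where the share of all genes ran from 19.5% to 34.8%. Of 134 alternative values for the percentiles of single genes, 109 stayed and 25 moved. A setting in which a gene lost its region gave no value and is in neither count. For example, myo-3 had no region with either replicate alone, and dim-1 had none with the window 500 bp upstream to 100 bp downstream. A stayed value could still differ, as for unc-52, at 70.4 in the main setting and 45.6 without replicate 2. Depth limits what an absent region can say, since no read counts were given.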

Other observations

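Among the other listed genes, the groups differed in how many carried a pooled region. It was 11 of 17 further attachment genes (64.7%) and 11 of 21 genes listed with the sarcomere (52.4%), beside 26.5% of all protein-coding genes. It was 6 of 15 genes of the muscle membrane and calcium handling (40%), 3 of 8 further muscle regulators (37.5%) and 1 of 9 basement membrane genes (11.1%). The attachment genes included pxl-1 (paxillin), at 62.5 pooled with 33.6 in replicate 1 and 23.7 in replicate 2, and zyx-1 (zyxin), at 48.5 with 28.3 and 17.5. Another troponin I gene, tni-4, was at 62.9 with 33.3 and 23.7, where unc-27 had 27.3, 13.6 and no region. The troponin I gene tni-3 was lower, at 30.5 pooled, 15.8 in replicate 1 and none in replicate 2, and tni-1 was in none of the lists. The basement membrane genes with no pooled region included the collagen IV genes emb-9, in none of the lists, and let-2, with 16.9 in replicate 1 and 14.8 in replicate 2. ost-1 (SPARC) was the gene with one, at 32.2. Among regulators, pal-1, a caudal-type homeobox gene, had 40.8 pooled, 16.8 in replicate 1 and 31.1 in replicate 2. The 6 genes of the membrane and calcium group had pooled signals from 24.4 at unc-68, the ryanodine receptor, to 36.2 at stn-1, a syntrophin.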
